A study of Macaca mulatta with 16 samples.

Results

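Fibroblast growth factor (FGF) signaling was examined in the lungs of fetal rhesus macaques through 10 genes chosen by name: the ligands FGF7, FGF9, FGF10 and FGF18, the receptors FGFR1, FGFR2, FGFR3 and FGFR4, and the inhibitors SPRY1 and SPRY2. Of these 10, 9 have a row among the 22515 genes of the count table. FGFR4 is not analysed here because its symbol matched no row. All 9 were among the 19199 genes with enough counts to be tested. In the table they are FGF7 (ENSMMUG00000009842), FGF9 (ENSMMUG00000009912), FGF10 (ENSMMUG00000047162), FGF18 (ENSMMUG00000019401), FGFR1 (ENSMMUG00000022478), FGFR2 (ENSMMUG00000009594), FGFR3 (ENSMMUG00000019945), SPRY1 (ENSMMUG00000001848) and SPRY2 (ENSMMUG00000018292).

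In the developing lung, FGF ligands carry signals between the mesenchyme and the epithelium. FGF7 and FGF10 are made by mesenchymal cells and act on the epithelial splice form of FGFR2, and FGF10 drives branching of the airways. FGF9 comes from the mesothelium and the epithelium and acts on the mesenchyme, and FGF18 is a mesenchymal ligand with known roles in cartilage and in the formation of alveoli. Active receptors signal through RAS and ERK to ETS transcription factors, and Sprouty proteins are intracellular inhibitors that the same signal induces.

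The study asked how prenatal inflammation and a low dose of an antenatal corticosteroid affect maturation of the fetal lung. Bulk RNA was sequenced from 16 fetuses in 5 groups, with 1 library for each animal. The preterm controls were 4 untreated fetuses delivered at 131 to 135 days of gestation. Bacterial lipopolysaccharide (LPS) was given into the amniotic fluid at 1 mg, and 4 fetuses were delivered 16 hours later at 130 to 131 days (LPS 16h) and 3 were delivered 5 days later at 131 to 134 days (LPS 5d). Another 3 fetuses received the same LPS, and their dams were given betamethasone acetate (Beta-Ac), a slowly released corticosteroid, into a muscle at 0.125 mg/kg, with delivery 5 days later at 131 to 132 days (LPS + Beta-Ac). The term controls were 2 untreated fetuses delivered at 156 and 157 days. LPS was given at 129 to 130 days in LPS 16h, 126 to 129 days in LPS 5d and 126 to 127 days in LPS + Beta-Ac. The controls had no intervention and thus no injection, so the injection and LPS cannot be told apart, and animals with Beta-Ac alone were not analysed here. Whole lung RNA mixes all cell types, and in such bulk samples fewer cells of a type and less RNA per cell cannot be told apart.

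Libraries held 20169363 to 48052891 counts. The LPS 16h libraries were the deepest, with 30596371 to 48052891 counts against 20169363 to 28348816 in the other 4 groups, so depth and early LPS exposure cannot be told apart by group. Levels are given as CPM, counts relative to the library total, after TMM scaling, which corrects for the composition of a library. These levels are not divided by gene length and are compared between animals for the same gene, not between genes. A change is described as a rise or a fall where its Benjamini-Hochberg adjusted p was below 0.05 in limma, and a gene is called where it also changed at least 2-fold, the limits used in the study. The summed level of 10 myeloid markers was 145 to 271 CPM in preterm controls, 2336 to 3059 in LPS 16h, 274 to 296 in LPS 5d, 485 to 756 in LPS + Beta-Ac and 347 to 439 in term controls. The sum of 11 epithelial markers was 7053 to 10102 CPM in preterm controls, 7989 to 16260 in LPS 16h, 13686 to 20001 in LPS 5d, 14417 to 19918 in LPS + Beta-Ac and 14022 to 16417 in term controls, and that of 10 fibroblast markers was 13422 to 22054, 9064 to 13110, 8490 to 14543, 7992 to 11482 and 8220 to 8371 in the same order. No marker of these 3 lists was at 0 in a group, and the lung identity of the samples was borne out by the epithelial and fibroblast markers in every library. The summed markers of myeloid cells, epithelium and fibroblasts therefore moved with the treatment groups, and their part in the results was not tested. The largest terms of the epithelial sum were the surfactant genes SFTPC and SFTPB, at means of 2942 and 2791 CPM in preterm controls. In LPS 16h, 4 of the 11 epithelial markers rose and 2 fell, with a median log2 change of -0.16. Of the 10 fibroblast markers 8 fell and none rose, with a median of -0.76. Of 8 markers of smooth muscle and pericytes 5 fell and 2 rose, also with a median of -0.76. Of all tested genes, 18.7% rose and 19.6% fell in that group. The part of the fibroblast and smooth muscle markers in the changes of FGFR1 and FGF18 was not tested.

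**Figure D1:**
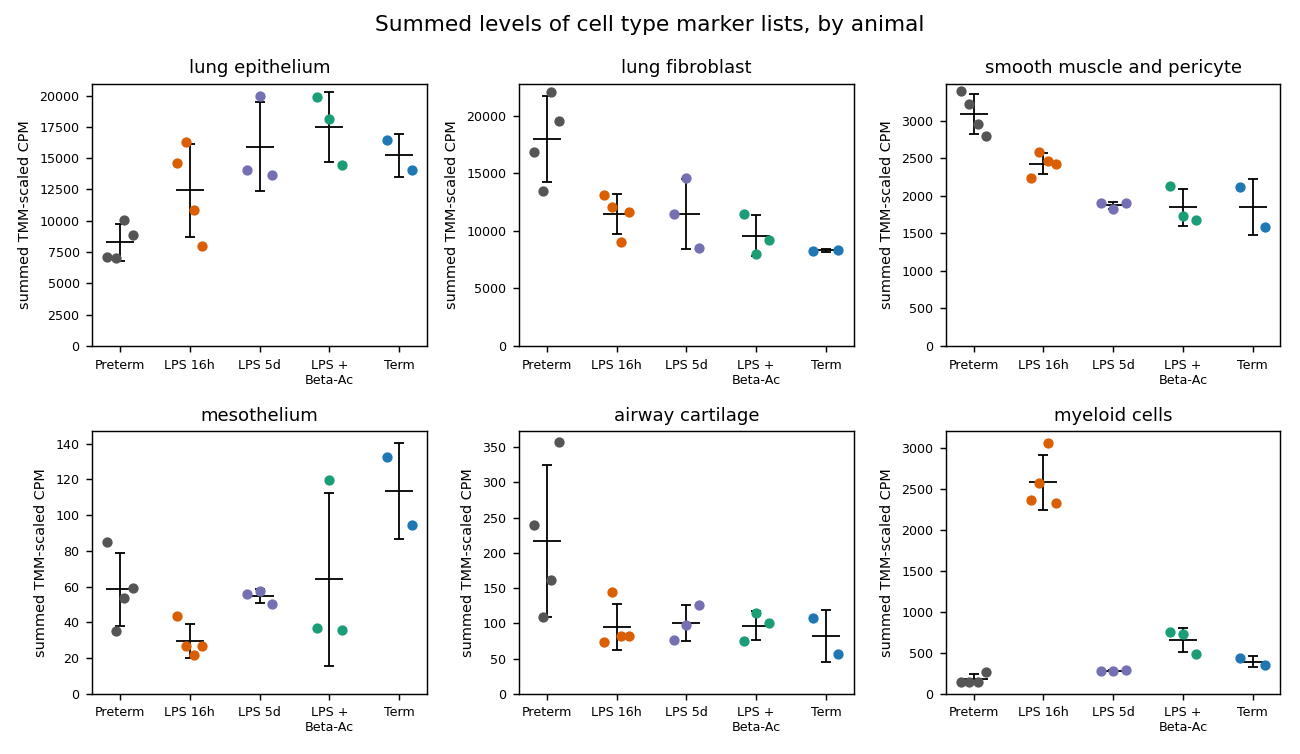
Summed TMM-scaled CPM (vertical axes, from 0) of 6 marker lists in each group (horizontal axes). Each point is 1 animal, and the bars give the mean and SD. The 4 LPS 16h animals lie at 2336 CPM or more for myeloid markers, and every other animal lies at 756 or less.

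At 16 hours after LPS, 1 ligand rose and most of the other genes fell. FGF7, known as keratinocyte growth factor, was 2.65-fold higher than in preterm controls, while FGF9, FGF18 and FGFR3 were 2.77-fold, 2.28-fold and 2.30-fold lower. FGFR1, FGFR2 and SPRY2 fell by less than 2-fold, and FGF10 and SPRY1 did not pass the test. Thus 4 of the 9 genes were called, where 14.4% of all tested genes were called. The genes were chosen with earlier results of these data known, so such shares, here and below, are a description. Without the fold limit 7 of 9 passed, against 38.3% of all genes, and 6 of 9 passed in the lower direction, against 19.6% of all genes. The animals of the 2 groups did not overlap for the same 7 genes, where 33.6% of all tested genes did not overlap. The median log2 change of the 9 genes was -0.62 and that of all tested genes was -0.09.

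FGF7 was measured at 20.9, 19.9, 24.3 and 19.2 CPM in preterm controls and at 45.2, 64.5, 44.7 and 74.3 CPM in LPS 16h. All 4 exposed animals were above all 4 controls. The log2 fold change was 1.41 ± 0.22 (SE, n = 4 and 4) with an adjusted p of 0.000115 (limma). FGF10, the other mesenchymal ligand of epithelial FGFR2, was at 14.99, 16.0, 14.9 and 10.3 CPM in preterm controls and at 19.2, 22.3, 15.2 and 14.3 CPM in LPS 16h. Those ranges overlapped, and the log2 difference was 0.33 (95% interval -0.13 to 0.80, limma adjusted p = 0.25).

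FGF9 was at 5.53, 2.45, 4.68 and 2.33 CPM in preterm controls and at 1.99, 0.694, 1.28 and 1.22 CPM in LPS 16h. It fell by 1.47 ± 0.36 on the log2 scale (SE, limma adjusted p = 0.0043). Every LPS 16h animal was below every control, although the lowest control, at 2.33 CPM, lay close to the highest exposed animal, at 1.99 CPM. FGF9 rests on few reads, with 26 to 132 counts per library, which limits its precision. FGF18 was at 7.75, 7.76, 6.74 and 6.33 CPM in preterm controls and at 3.27, 2.96, 2.80 and 3.32 CPM in LPS 16h. It fell by 1.19 ± 0.14 on the log2 scale (SE, limma adjusted p = 9.27e-06), and the gap between the groups was wider than the range within either of them. The 7 summed markers of the mesothelium, a source of FGF9, were at 35.4 to 85.2 CPM in preterm controls and 21.6 to 43.3 CPM in LPS 16h, and the 8 of airway cartilage, a tissue in which FGF18 acts, at 109 to 357 and 73.2 to 144 CPM. None of them was at 0 in these groups. Of the 6 mesothelial markers tested, 1 rose and 1 fell, and of the 8 cartilage markers 1 fell and none rose. Of all tested genes, 18.7% rose and 19.6% fell, so the lower sums do not stand for most of these markers. The part of the markers in the changes of FGF9 and FGF18 was not tested.

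The receptors were all lower at this time. FGFR1, the main receptor of mesenchymal cells, was at 295, 279, 310 and 240 CPM in preterm controls and 195, 237, 204 and 188 CPM in LPS 16h, a fall of 0.45 ± 0.10 on the log2 scale (SE, limma adjusted p = 0.00273). FGFR2, the receptor of FGF7 and FGF10 on epithelium, was at 233, 153, 225 and 208 CPM in preterm controls and 122, 118, 123 and 99.3 CPM in LPS 16h, and fell by 0.81 ± 0.16 (SE, limma adjusted p = 0.000775). With total counts FGFR2 fell by 1.02 and passed the fold limit (limma adjusted p = 7.96e-05), which made 5 of 9 genes called. FGFR3 was at 230, 225, 182 and 259 CPM in preterm controls and 107, 119, 107 and 63.6 CPM in LPS 16h, and fell by 1.20 ± 0.18 (SE, limma adjusted p = 9.68e-05). No LPS 16h animal reached the lowest control for any of the 3 receptors. The counts are summed over transcripts of a gene, so the epithelial and mesenchymal splice forms of FGFR2 are not separated.

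Of the Sprouty genes, SPRY2 was at 52.6, 44.2, 51.5 and 51.6 CPM in preterm controls and at 32.1, 35.6, 29.4 and 33.2 CPM in LPS 16h. It fell by 0.62 ± 0.10 on the log2 scale (SE, limma adjusted p = 0.000264), with no overlap. SPRY1 did not pass the test. Its values were 154, 161, 162 and 108 CPM in preterm controls and 121, 159, 113 and 141 CPM in LPS 16h, a log2 difference of -0.12 (95% interval -0.48 to 0.24, limma adjusted p = 0.60). Whether the 2 Sprouty genes differed from each other was not tested.

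**Figure D2:**
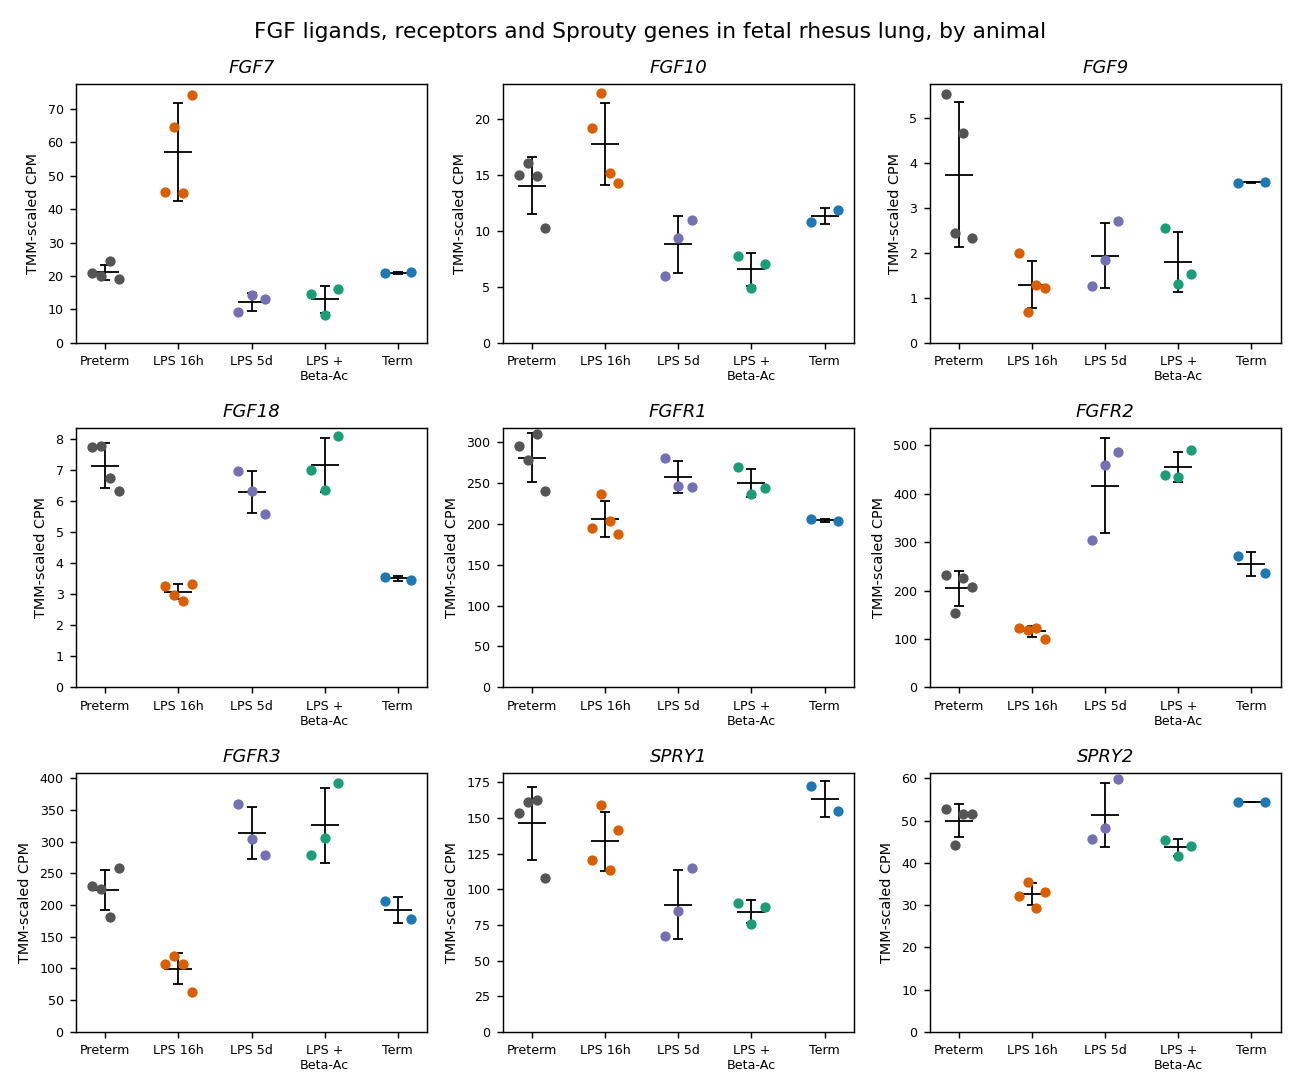
TMM-scaled CPM (vertical axes, from 0) of the 9 genes in each group (horizontal axes). Each point is 1 animal, and the bars give the mean and SD. FGF7 lies at 44.7 CPM or more in the LPS 16h animals and at 16.2 or less in all 6 animals delivered 5 days after LPS, and FGFR2 lies at 123 CPM or less and at 304 or more in the same animals.

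At 5 days after LPS, FGFR2 was higher and FGF7 and SPRY1 were lower than in preterm controls. FGFR2 was the only one of the 9 genes called, where 4.83% of all tested genes were called. Without the fold limit 3 of 9 passed, against 14.7% of all genes, and 3 of 9 did not overlap between the groups, against 29.2%. The median log2 change was -0.18 for the 9 genes and 0.00 for all tested genes.

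FGFR2 reached 304, 459 and 486 CPM in LPS 5d, all above the highest preterm control at 233. It rose by 1.01 ± 0.17 on the log2 scale (SE, n = 3 and 4, limma adjusted p = 0.00126), or 2.02-fold. This size lay at the fold limit, and it was under 2-fold with total counts (log2 change 0.9997) and without preterm control 101 (0.88), LPS 5d animal 240 (0.93) or LPS 5d animal 242 (0.89), with adjusted p values of at most 0.0103 in these 4 fits. FGF7 was at 9.32, 14.3 and 13.0 CPM, below every preterm control. It fell by 0.80 ± 0.23 on the log2 scale (SE, limma adjusted p = 0.0308), but the adjusted p was 0.0546 with limma-voom and 0.0538 to 0.152 without preterm control 092, 101 or 113 or LPS 5d animal 239 or 242.

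SPRY1 was at 67.0, 85.1 and 115 CPM in LPS 5d, and the highest of these lay above the lowest preterm control, at 108. It fell by 0.73 ± 0.18 on the log2 scale (SE, limma adjusted p = 0.0148), and did not pass without LPS 5d animal 239 (adjusted p = 0.0872) or 240 (0.0573). FGF10 was at 5.99, 9.40 and 11.0 CPM, a log2 difference of -0.69 (95% interval -1.20 to -0.19) that missed the threshold with an adjusted p of 0.0631. FGF9 was at 1.27, 1.84 and 2.70 CPM, with a difference of -0.89 (95% interval -1.71 to -0.07, adjusted p = 0.141). FGFR3 was at 359, 305 and 279 CPM, above every preterm control, with a difference of 0.49 (95% interval 0.08 to 0.91, adjusted p = 0.107). FGF18, FGFR1 and SPRY2 had log2 differences of -0.18, -0.12 and 0.03, and their ranges overlapped those of the preterm controls.

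In LPS + Beta-Ac, FGFR2 was higher and FGF10, FGF7 and SPRY1 were lower than in preterm controls. FGFR2 and FGF10 were called, 2 of 9 genes where 6.5% of all tested genes were called. Without the fold limit 4 of 9 passed, against 17.3% of all genes, and 5 of 9 did not overlap, against 30.8%. The median log2 change was -0.19 for the 9 genes and -0.01 for all tested genes. The same 4 preterm controls entered this comparison and the 2 before it. Of the epithelial markers, 4 of 11 rose and none fell in LPS 5d and likewise in LPS + Beta-Ac, and of the fibroblast markers none rose, while 2 of 10 fell in LPS 5d and 4 of 10 in LPS + Beta-Ac. Of all tested genes, 10.2% fell in LPS + Beta-Ac, and 14.7% passed in either direction in LPS 5d. The part of these markers in the changes of FGFR2 and of the mesenchymal ligands was not tested.

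FGFR2 was at 438, 434 and 490 CPM in LPS + Beta-Ac, and rose by 1.17 ± 0.17 on the log2 scale (SE, n = 3 and 4, limma adjusted p = 0.000305). FGF10 was at 7.75, 4.89 and 7.05 CPM, below every preterm control, and fell by 1.10 ± 0.24 (SE, limma adjusted p = 0.00497), or 2.14-fold. Without animal 249, which had the lowest FGF10, the fall was 0.87 on the log2 scale and the adjusted p was 0.0397, so that FGFR2 alone was called. FGF7 was at 14.5, 8.36 and 16.2 CPM and fell by 0.74 ± 0.23 (SE, limma adjusted p = 0.0384). Its adjusted p was 0.0617 with limma-voom, 0.0544 without preterm control 209 and term control 200 together, and 0.0547 to 0.251 without preterm control 092, 101 or 113 or LPS + Beta-Ac animal 248 or 249. Without animal 249 the fall of FGF7 was 0.42 on the log2 scale.

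SPRY1 was at 90.5, 75.4 and 87.2 CPM, below every preterm control, and fell by 0.78 ± 0.18 on the log2 scale (SE, limma adjusted p = 0.0083). Without animal 249 its adjusted p was 0.0521. FGFR3, at 279, 307 and 393 CPM, again lay above every preterm control, with a log2 difference of 0.54 (95% interval 0.12 to 0.95, adjusted p = 0.0717). FGF9 was at 2.56, 1.30 and 1.54 CPM, with a difference of -0.99 (95% interval -1.80 to -0.17, adjusted p = 0.0935). FGF18 was at 7.001, 6.37 and 8.09 CPM, inside or near the range of the preterm controls, with a difference of 0.00 (95% interval -0.32 to 0.32).

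**Figure D3:**
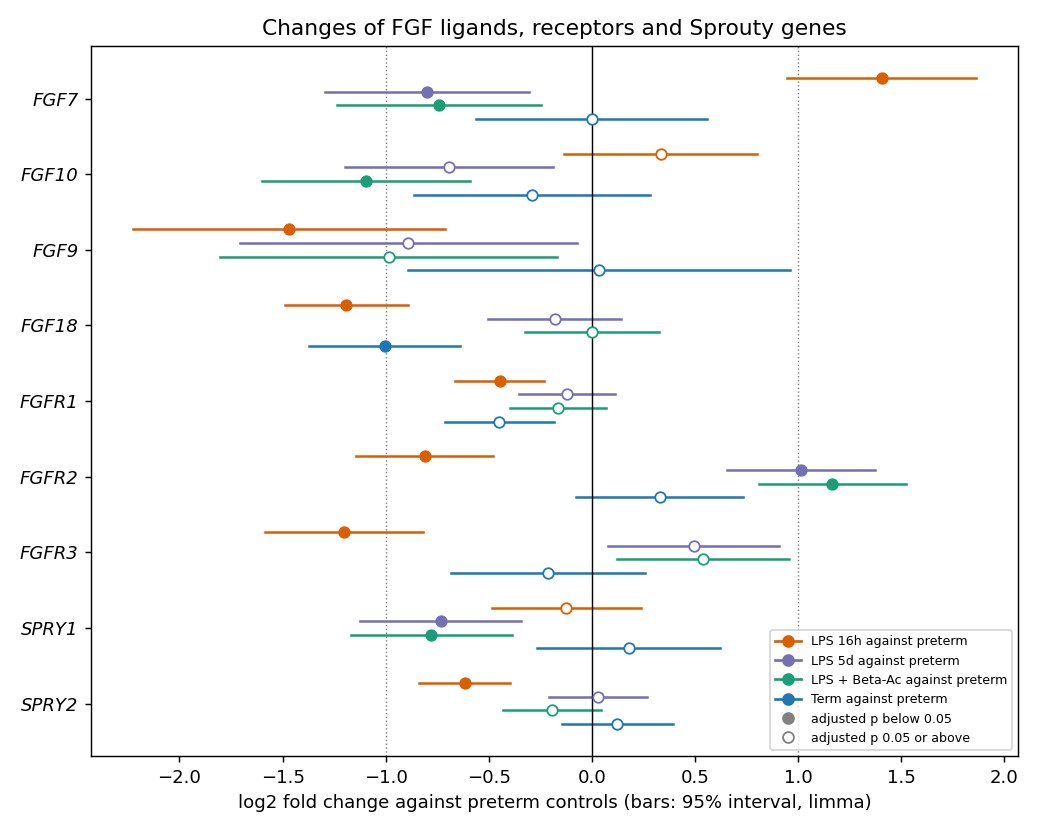
Log2 fold change against the shared preterm controls (horizontal axis) of the 9 genes (vertical axis) in 4 groups, marked by color. Points are limma estimates, bars are 95% intervals, filled points have an adjusted p below 0.05, and dotted lines mark 2-fold. FGF7 and FGFR2 lie on opposite sides of 0 at 16 hours and at 5 days after LPS.

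The effect of LPS at 16 hours differed from that at 5 days for most of the genes. The test of this difference is the comparison of LPS 16h with LPS 5d, because the preterm controls cancel. FGF7, FGF10, FGF18, FGFR2 and FGFR3 were called, 5 of 9 genes where 14.6% of all tested genes were called. Without the fold limit 8 of 9 passed, against 35% of all genes, and 7 of 9 did not overlap, against 40%. FGF7 was 4.61-fold higher at 16 hours (log2 difference 2.21 ± 0.23, SE, n = 4 and 3, limma adjusted p = 4.09e-06), and FGFR2 was 3.54-fold lower (-1.82 ± 0.17, adjusted p = 1.05e-06). FGFR3 was 3.24-fold lower (-1.69 ± 0.19, adjusted p = 9.31e-06).

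FGF10 differed by 1.03 ± 0.24 between the times (SE, limma adjusted p = 0.00329) and FGF18 by -1.01 ± 0.15 (SE, limma adjusted p = 0.000113). Both lay at the fold limit: FGF10 was under 2-fold with total counts (0.84) and without LPS 16h animal 026 (0.98) or 029 (0.91) or LPS 5d animal 239 (0.78), and FGF18 with median-of-ratios factors (-0.996) and without LPS 16h animal 029 (-0.99) or 035 (-0.97) or LPS 5d animal 239 (-0.94). Without LPS 16h animal 029 or LPS 5d animal 239, 3 genes were called. SPRY1 was higher at 16 hours by 0.61 ± 0.18 (SE, limma adjusted p = 0.0171), but not with total counts (adjusted p = 0.0785) or without LPS 5d animal 239 (0.111) or 240 (0.0535). SPRY2 was lower by 0.65 ± 0.11 (SE, limma adjusted p = 0.000385). FGFR1 was lower by 0.32 ± 0.11 (SE, limma adjusted p = 0.0308), with an adjusted p of 0.0548 to 0.139 when only these 2 groups were fitted or when LPS 16h animal 026, 035 or 038 or LPS 5d animal 239 or 240 was left out. FGF9 had a log2 difference of -0.58 (95% interval -1.40 to 0.24, adjusted p = 0.266).

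The ratio of FGFR2 to FGF7 counts within a library does not depend on how libraries are scaled. This pair was chosen after its values were seen and the ratio is given without a test. Preterm controls had 11.1, 7.68, 9.25 and 10.8 FGFR2 counts for each FGF7 count. LPS 16h animals had 2.70, 1.83, 2.74 and 1.34, LPS 5d animals 32.6, 32.1 and 37.3, LPS + Beta-Ac animals 30.2, 51.9 and 30.3, and term controls 13.1 and 11.2. The 6 animals delivered at 5 days were all above the untreated animals, and the 4 delivered at 16 hours were all below them. The ratio reflects gene length as well as expression, so its size in any group is not a ratio of molecules.

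**Figure D4:**
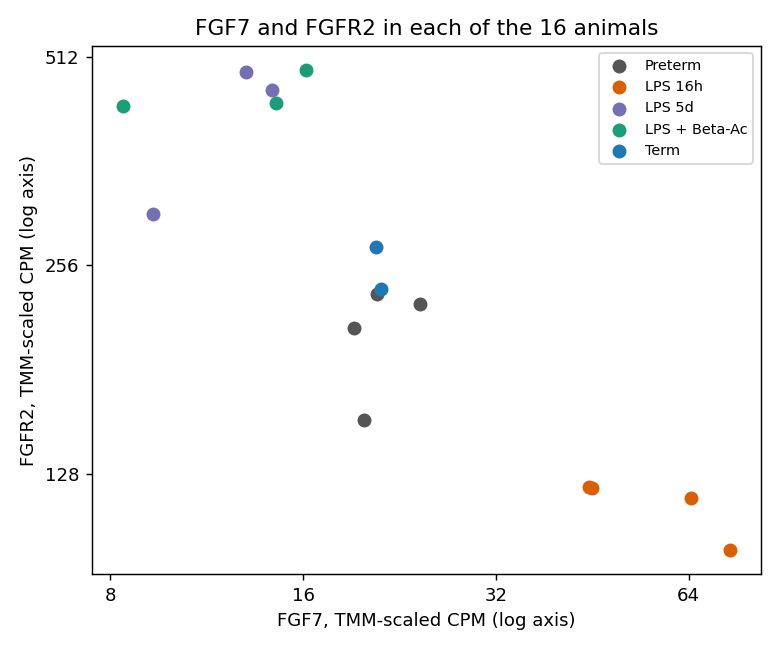
FGFR2 (vertical axis) against FGF7 (horizontal axis) in TMM-scaled CPM, both on log axes. Each point is 1 of the 16 animals, colored by group. The LPS 16h animals lie at the lower right, the LPS 5d and LPS + Beta-Ac animals at the upper left, and the untreated preterm and term animals between them.

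Adding Beta-Ac to LPS gave no detectable change in these genes. None of the 9 was called between LPS + Beta-Ac and LPS 5d in limma, none had an unadjusted p under 0.05, and none was called with limma-voom, where 0.104% of all tested genes were called by limma and 4.82% had an unadjusted p under 0.05. FGF10 had a log2 difference of -0.40 (95% interval -0.94 to 0.14), an interval that holds a fall close to 2-fold as well as no change. FGFR2 had a difference of 0.15 (95% interval -0.23 to 0.54) and FGF7 one of 0.06 (95% interval -0.47 to 0.59). SPRY2 was the only gene whose ranges did not overlap, against 11.4% of all tested genes, with 45.6, 48.3 and 59.8 CPM in LPS 5d and 45.4, 41.6 and 43.9 CPM in LPS + Beta-Ac, and a difference of -0.22 (95% interval -0.48 to 0.03). With 3 animals in each group the intervals for most of these genes are wide.

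Between preterm and term controls only FGF18 passed the test. It was at 3.57 and 3.46 CPM in term controls and 6.33 to 7.76 in preterm controls, and fell by 1.01 ± 0.17 on the log2 scale (SE, n = 2 and 4, limma adjusted p = 0.00715), or 2.01-fold. This was 1 of 9 genes called, where 2.07% of all tested genes were called and 3.99% passed without the fold limit, and 4 of 9 did not overlap, against 26.4%. The fall was under 2-fold with median-of-ratios factors (0.98 on the log2 scale), total counts (0.94) and without preterm control 092 (0.96), preterm control 101 (0.96) or term control 201 (0.98). Its adjusted p was 0.0721 when only these 2 groups were fitted and 0.0574 without term control 200. Summed airway cartilage markers were at 56.1 to 108 CPM in term and 109 to 357 in preterm controls, although only 1 of these 8 markers passed the test, and it fell. Of the 10 fibroblast markers 4 fell and none rose, and of the 8 smooth muscle and pericyte markers 3 fell and none rose. The part of the cartilage, fibroblast and smooth muscle markers in the fall of FGF18 was not tested.

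No other gene passed between the 2 control groups. FGFR1 was at 206 and 204 CPM in term controls, below every preterm control, with a log2 difference of -0.45 (95% interval -0.71 to -0.19) that missed the threshold at an adjusted p of 0.0564. FGFR2, at 272 and 237 CPM, and SPRY2, at 54.4 and 54.3 CPM, lay above every preterm control, with differences of 0.33 (adjusted p = 0.379) and 0.12 (0.664). FGF7, at 20.8 and 21.2 CPM, and FGF9, at 3.57 and 3.59 CPM, lay inside the range of the preterm controls, as did FGF10 at 10.8 and 11.8 CPM.

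Set against term lung, LPS 5d had none of the 9 genes called by limma, with 6 at an unadjusted p under 0.05 and none called with limma-voom, where 0.0625% of all tested genes were called by limma and 11% had an unadjusted p under 0.05. For LPS + Beta-Ac, FGF18 was called, where 0.568% of all tested genes were called, and all 9 genes had an unadjusted p under 0.05, against 14.4% of all tested genes. FGF18 was 2.01-fold higher than in term (log2 difference 1.01 ± 0.18, SE, n = 3 and 2, limma adjusted p = 0.0222). Its adjusted p was 0.0525 to 0.209 when only these 2 groups were fitted, and when term control 200 or 201, LPS + Beta-Ac animal 248 or 255, or preterm control 209 with term control 200 were left out, and it was under 2-fold with total counts (0.92). With total counts SPRY1 was called in its place, at a log2 difference of -1.04 (limma adjusted p = 0.0388), where TMM gave -0.96 (0.0623). The ranges of the 2 groups did not overlap for 9 of 9 genes, against 33% of all tested genes. In LPS + Beta-Ac, FGF18, FGFR1, FGFR2 and FGFR3 lay above the term controls and FGF7, FGF9, FGF10, SPRY1 and SPRY2 below them, and only FGF18 passed the test with TMM. In LPS 5d, 7 of 9 did not overlap with term, against 30.4%.

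Ordered by mean level, FGF7 was lowest in LPS 5d, followed by LPS + Beta-Ac, term, preterm and LPS 16h, and the first pair of neighbors and the term and preterm controls overlapped. FGFR2 went from LPS 16h through preterm, term and LPS 5d to LPS + Beta-Ac, and only the last 2 overlapped. FGF18 was lowest in LPS 16h, next in term, and then overlapped among LPS 5d, preterm and LPS + Beta-Ac. FGF10 and SPRY1 were lowest in LPS + Beta-Ac and next in LPS 5d, and for both genes every neighboring pair of groups overlapped. Within groups, FGF10 and SPRY1 also varied together over the 16 animals, with a Pearson r of 0.80 overall and 0.81 after subtracting the group means. Of all pairs of members this one had the highest r after that subtraction, and it was picked after its values were seen. The lowest animals of their groups for both genes were preterm control 209, LPS 5d animal 239 and LPS + Beta-Ac animal 249. In LPS 16h the lowest were animal 038 for FGF10 and animal 035 for SPRY1, and in term controls animal 200 for FGF10 and animal 201 for SPRY1. FGFR2 and FGFR3 had an r of 0.88 overall and 0.09 after subtracting the group means.

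The genes whose log2 CPM followed each member most closely over the 16 animals are given as a description. They share libraries and treatment groups with the member, and no function is inferred. DUSP6, an ERK phosphatase induced by ERK signaling, was the gene most like SPRY1, with a Pearson r of 0.93, and 0.86 after subtracting the group means. MATN2, an extracellular matrix protein, was most like FGFR1 (r = 0.97, and 0.90 after subtracting the group means). DAPK1, a kinase linked to cell death, was most like FGFR2 (0.96 and 0.73), and PSMC6, a subunit of the proteasome, was most like FGF7 (0.97 and 0.79). The closest were TMEM80 for FGFR3 (0.97), WDSUB1 for SPRY2 (0.95), PFDN4, a subunit of the prefoldin chaperone, for FGF10 (0.94), POLE, a subunit of a DNA polymerase, for FGF18 (0.94) and IDS, a lysosomal sulfatase, for FGF9 (0.91). For POLE and FGF18 the r was -0.06 after subtracting the group means.

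A list of 13 genes was made for targets and feedback inhibitors of ERK signaling other than SPRY1 and SPRY2, and 12 were tested. It too was chosen with earlier results of these data known, so its shares are a description. SPSB1, an adaptor of a ubiquitin ligase, is on this list but is not an established gene of that kind. It is kept in the counts and medians of the 12. At 5 days after LPS, 6 of the 12 fell, all at least 2-fold, and none rose, where 2.23% of all tested genes were called lower. Several of the 6 lay near the fold limit. Without that limit 14.7% of all tested genes passed in either direction. The median log2 change of the 12 was -0.78, against 0.00 over all tested genes. In LPS + Beta-Ac, 6 of 12 fell, against 10.2% of all tested genes, and 5 of them were called, where 2.44% of all genes were called lower, and the median was -0.79 against -0.01. The 3 with the smallest adjusted p in both groups were SPRY4, a further Sprouty gene, and the ETS factors ETV5 and ETV1. SPRY4 was at 58.9, 90.6, 75.1 and 51.3 CPM in preterm controls, 24.5, 26.2 and 35.4 in LPS 5d and 32.1, 27.6 and 40.6 in LPS + Beta-Ac, with log2 changes of -1.25 ± 0.22 and -1.03 ± 0.22 (SE, limma adjusted p = 0.00206 and 0.00516). ETV5, which is induced in the distal epithelium by FGF signals, was at 167, 123, 162 and 193 CPM in preterm controls, 58.7, 98.0 and 80.7 in LPS 5d and 91.1, 74.9 and 53.4 in LPS + Beta-Ac.

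ETV5 changed by -1.04 ± 0.20 and -1.15 ± 0.20 on the log2 scale in these 2 groups (SE, limma adjusted p = 0.00293 and 0.00105), and ETV1 by -1.08 ± 0.21 and -1.16 ± 0.21 (SE, limma adjusted p = 0.00312 and 0.00145). None of the 6 animals reached the lowest preterm control for SPRY4, ETV5 or ETV1. These genes were named for their small adjusted p in the same comparisons, so this separation follows in part from the choice. Of all tested genes, 29.2% in LPS 5d and 30.8% in LPS + Beta-Ac did not overlap with preterm controls, in either direction. ETV4 and SPRED1, named here after their values were seen, also fell in both groups, and DUSP6 fell in LPS 5d by 1.20 ± 0.34 (SE, limma adjusted p = 0.0279) and missed the threshold in LPS + Beta-Ac (-1.03 ± 0.34, adjusted p = 0.0504). In LPS 5d, DUSP6 missed the threshold when only these 2 groups were fitted or without preterm control 092, 101 or 113 or LPS 5d animal 239 or 240, and ETV4 without preterm control 101 or 113 or LPS 5d animal 239 or 242. In LPS + Beta-Ac, ETV4 missed it without preterm control 113 or LPS + Beta-Ac animal 249 or 255. Without each animal in turn, 4 to 6 of the 12 fell in LPS 5d and 4 to 7 in LPS + Beta-Ac. These counts leave out the fold limit. In LPS 5d the smallest log2 change in these fits was -0.84 for ETV5, -0.93 for ETV1, -0.92 for ETV4 and -0.975 for DUSP6. In LPS + Beta-Ac it was -0.87 for SPRY4, -0.89 for SPRED1, -0.94 for ETV5 and -0.96 for ETV4. All of these are under 2-fold. SPRY4 and SPRED1 in LPS 5d and ETV1 in LPS + Beta-Ac stayed past 2-fold. Under the other alternatives ETV5 in LPS 5d reached -0.94 and SPRY4 in LPS + Beta-Ac -0.9998. The 8 summed markers of proliferating cells were at 139 to 199 CPM in preterm controls, 59.9 to 69.0 in LPS 5d, 78.7 to 86.5 in LPS + Beta-Ac and 50.7 to 66.0 in term controls, and their part in these falls was not tested.

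At 16 hours after LPS, 2 of the 12 rose and 4 fell, where 18.7% of all tested genes rose and 19.6% fell, with a median log2 change of -0.15 against -0.09 over all genes. DUSP5, another ERK phosphatase, was at 5.01, 7.996, 4.72 and 3.93 CPM in preterm controls and 16.5, 19.0, 26.5 and 22.4 CPM in LPS 16h, and rose by 1.98 ± 0.26 on the log2 scale (SE, limma adjusted p = 2.86e-05). The other gene that rose was SPSB1, by 1.10 ± 0.21 (SE, limma adjusted p = 0.000703), which is not an established ERK target or inhibitor. ETV1 fell by 0.70 ± 0.19 (SE, limma adjusted p = 0.00946) with ranges that overlapped. The number that fell at this time went to 1 when only these 2 groups were fitted or preterm control 092 was left out, and to 2 without LPS 16h animal 029 or preterm control 113. In term controls none of the 12 passed by limma or limma-voom, with 1 at an unadjusted p under 0.05 against 18.9% of all tested genes, and without preterm control 209 there was 1 that fell.

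**Figure D5:**
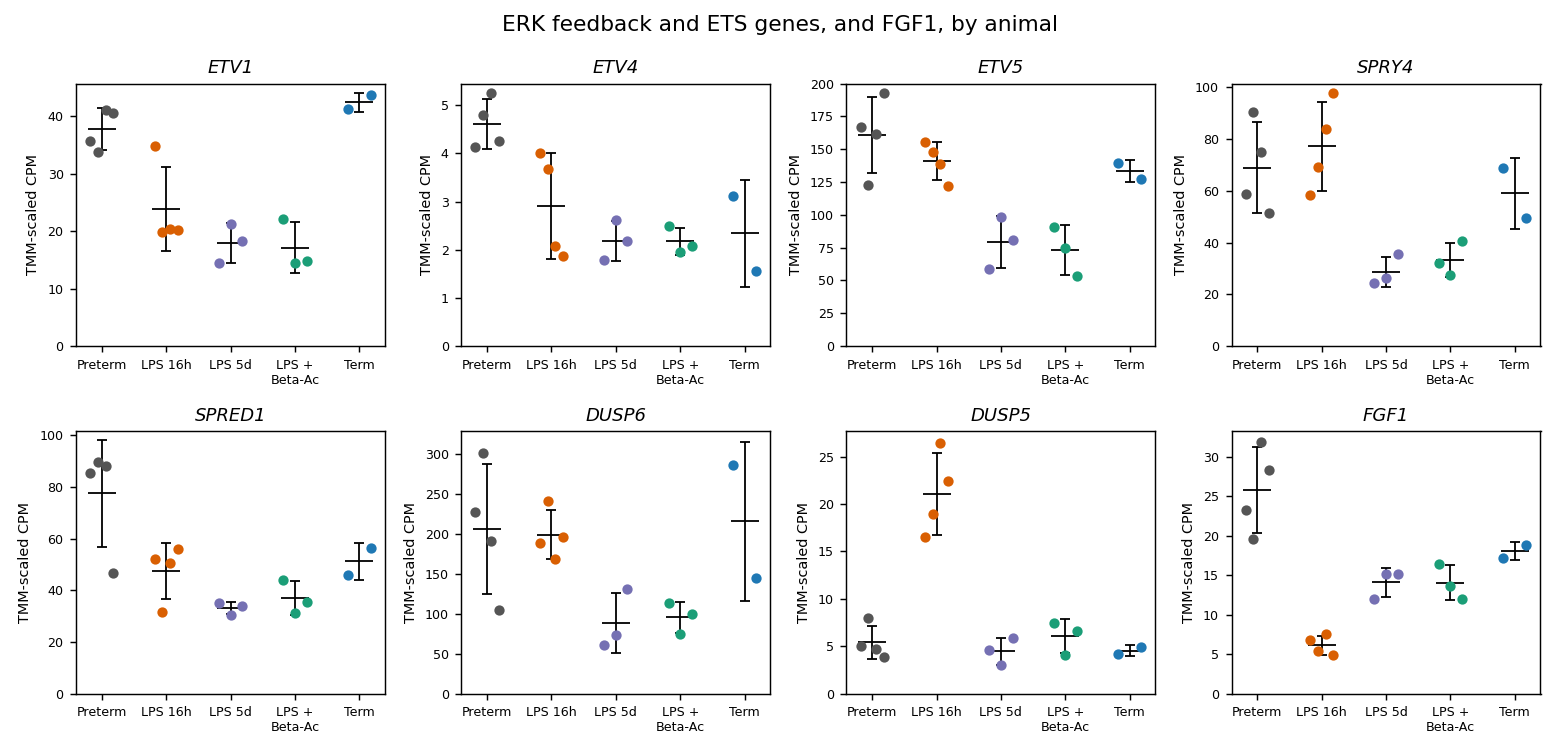
TMM-scaled CPM (vertical axes, from 0) of 7 ERK target or feedback genes and of FGF1 in each group (horizontal axes). Each point is 1 animal, and the bars give the mean and SD. ETV5 and SPRY4 lie at 98.0 and 40.6 CPM or less in the 6 animals delivered 5 days after LPS, below every preterm control, and FGF1 lies at 7.53 CPM or less in LPS 16h.

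Of 14 other FGF ligands, 13 had a row and only FGF1, FGF2 and FGF22 were tested, since the remaining 10 had 0 to 50 counts in total over all libraries. FGF1, which binds all FGF receptors, was at 23.3, 19.6, 31.9 and 28.3 CPM in preterm controls, 6.75, 5.42, 7.53 and 4.94 in LPS 16h, 11.97, 15.2 and 15.2 in LPS 5d, 16.5, 13.6 and 12.1 in LPS + Beta-Ac, and 17.2 and 18.9 in term controls. It fell by 2.05 ± 0.18 on the log2 scale at 16 hours (SE, limma adjusted p = 3.80e-07), by 0.85 ± 0.19 in LPS 5d (adjusted p = 0.00853) and by 0.86 ± 0.19 in LPS + Beta-Ac (adjusted p = 0.00633). All treated and term animals were below every preterm control. FGF2, a ligand stored in the matrix, rose by 1.14 ± 0.29 at 16 hours (SE, limma adjusted p = 0.00609), from 1.34 to 3.14 CPM on average, with ranges that overlapped. FGF22 did not pass in any comparison with preterm controls.

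The 4 FGF homologous factors are intracellular proteins that bind sodium channels and are not ligands in the usual sense. FGF11 was at 3.48 to 7.95 CPM in preterm controls and rose by 2.38 ± 0.32 on the log2 scale in LPS 16h (SE, limma adjusted p = 3.49e-05) to between 18.0 and 44.2 CPM, and by 1.42 ± 0.34 in LPS 5d (SE, limma adjusted p = 0.013) to between 9.36 and 17.8 CPM. The second of these did not pass without LPS 5d animal 240 (adjusted p = 0.0716). FGF13 fell by 0.75 ± 0.23 in LPS 16h (adjusted p = 0.0189), 1.39 ± 0.25 in LPS 5d (0.00215) and 1.43 ± 0.25 in LPS + Beta-Ac (0.00127), all from limma with the SE, and the first did not pass without LPS 16h animal 026 or preterm control 092. FGF12 and FGF14 passed in none of the 4 comparisons with preterm controls.

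Of 18 co-receptors, binding proteins and heparan sulfate enzymes, which shape how ligands reach their receptors, 17 were tested. At 16 hours 4 rose and 3 fell, and 1 was called, where 18.7% of all tested genes rose, 19.6% fell and 14.4% were called. That gene was SDC4, a cell surface heparan sulfate proteoglycan, which rose by 1.95 ± 0.16 on the log2 scale (SE, limma adjusted p = 2.46e-07), from 126 to 166 CPM in preterm controls to 518 to 635 CPM in LPS 16h. SULF2, which removes sulfate groups from heparan sulfate, rose by 0.78 ± 0.18 (SE, limma adjusted p = 0.00331), and FGFRL1, a receptor that lacks the kinase, fell by 0.70 ± 0.15 (SE, limma adjusted p = 0.00174). FLRT3, a membrane protein that binds FGF receptors, was at 101 to 137 CPM in preterm controls, 40.5 to 68.6 in LPS 5d and 35.5 to 44.5 in LPS + Beta-Ac. It fell by 1.29 ± 0.21 and 1.62 ± 0.21 (SE, limma adjusted p = 0.00112 and 0.00013). FLRT3 was the only gene of the list called in either group, 1 of 17, where 4.83% and 6.5% of all tested genes were called. Without the fold limit 2 of 17 passed in LPS 5d and 3 of 17 in LPS + Beta-Ac, against 14.7% and 17.3% of all tested genes. GPC3, a glypican, fell by 0.57 and 0.69 on the log2 scale (limma adjusted p = 0.0476 and 0.016) in these groups. The first did not pass with median-of-ratios factors, without the count filter, with limma-voom, or without preterm control 092 or 113 or any LPS 5d animal, and the second without LPS + Beta-Ac animal 249. SULF2 rose in LPS + Beta-Ac by 0.69 (limma adjusted p = 0.0236), but not when only these 2 groups were fitted (0.0572) or without preterm control 092 or 101 or LPS + Beta-Ac animal 248 or 249.

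Among 19 signal transducers none was called by the 2-fold limit in the comparisons with preterm controls, where 14.4% of all tested genes were called for LPS 16h, 4.83% for LPS 5d, 6.5% for LPS + Beta-Ac and 2.07% for term. At 16 hours 4 rose and 5 fell without that limit, against 18.7% and 19.6% of all tested genes. SHC1, an adaptor, rose from 282 to 335 CPM in preterm controls to 498 to 753 CPM in LPS 16h (log2 change 0.98 ± 0.11, SE, limma adjusted p = 6.53e-06), MAP2K1, the kinase of ERK, rose by 0.67 ± 0.11 (SE, limma adjusted p = 0.000169), and FRS3, an adaptor of FGF receptors, fell by 0.86 ± 0.14 (SE, limma adjusted p = 0.00019). At 5 days NRAS, SOS2 and FRS2 fell, with log2 changes of -0.87, -0.55 and -0.68 in LPS 5d (limma adjusted p = 0.00156, 0.0223 and 0.0272) and -0.79, -0.54 and -0.70 in LPS + Beta-Ac (limma adjusted p = 0.00205, 0.0203 and 0.0213). These were 3 of 19 in each group, near the 14.7% and 17.3% of all tested genes that passed. In LPS 5d, SOS2 and FRS2 missed the threshold without preterm control 092, 101 or 113 or LPS 5d animal 239 or 240. In LPS + Beta-Ac, SOS2 missed it without preterm control 113 or LPS + Beta-Ac animal 248 or 249, and FRS2 without preterm control 092 or 113 or LPS + Beta-Ac animal 249. NRAS was also lower in term controls by 0.73 ± 0.17 (SE, limma adjusted p = 0.0287), at 43.7 and 60.6 CPM against 74.7 to 94.7, but not with total counts, when only these 2 groups were fitted, or without term control 200 or preterm control 092, 101 or 113.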

How the data were processed

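RNA of 16 fetal rhesus lungs was measured by bulk poly(A) RNA sequencing, with 1 library per animal. The authors sequenced 75 bp paired-end reads, assigned them with kallisto to the rhesus build Mmul_10, summarized them per gene with tximport and compared groups with DESeq2. The sources used here name neither tool versions nor the annotation release. The authors deposited counts, a whole number for every Ensembl gene in every animal, without normalization. Because the columns bear bare numbers, an automatic unit check could not read them as counts, so count models were not run and limma took their place. Levels that the text gives as log2 or CPM were computed from the deposited counts.

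Groups were taken from the labels, which give no sex, batch or pairing. The study lists sex by group and not by animal, for all its animals and not only those sequenced. The balance of males and females differed between groups there, and sex is not in the fits. The p values rest on a spread between animals that limma estimates from all groups together and moderates across genes. Symbols were matched by Ensembl ID (17256 of 22515 IDs). No genome of the build used was at hand, so positions and sequences are not used here. A gene was tested if 2 or more animals reached 0.371 CPM and its counts summed to 15 or more. Counts were scaled by TMM (trimming 30% of log ratios and 5% of means), turned into log2 CPM after adding a prior count of 2, and fitted with limma 3.58.1 (R 4.3.3; trend and robust options), with 1 mean per group over all 16 animals. Values are two-sided and Benjamini-Hochberg adjusted over 19199 genes. Fold changes are on this scale, and those of low genes are understated. Steps were tested on simulated data. Alternatives were other scalings, no count filter, a prior count of 0.5, limma-voom, no robust option, fits of only the groups compared, leaving out each animal, leaving out preterm control 209 and term control 200, and no fold limit. Each member is named. Other pathway genes are named when among the 3 of smallest adjusted p below 0.05 per list and comparison with preterm controls, and exceptions are stated. The members and lists were chosen with earlier results of these data known.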

Additional observations from a re-analysis of the deposited data

Results flagged for a closer look

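The LPS effect at 16 hours differed from that at 5 days in the test of the difference itself (limma, adjusted p below 0.05) for 8 of the 9 genes, against 35% of all tested genes. For FGFR1 and SPRY1 this did not hold in some of the other fits given above. The log2 effect at 16 hours minus that at 5 days was 2.21 for FGF7, 1.03 for FGF10, 0.61 for SPRY1, -0.32 for FGFR1, -0.65 for SPRY2, -1.01 for FGF18, -1.69 for FGFR3 and -1.82 for FGFR2. In the groups of 4 animals, 3 values stood apart from the rest of their group, with a gap to the nearest animal, as a share of the group's range on the log2 CPM scale, above Dixon's 95% limit for 4 samples. Among preterm controls, animal 209 had the lowest FGF10 (a gap of 0.835 of the range) and the lowest SPRY1 (0.863), and animal 101 had the lowest SPRY2 (0.88). On the CPM scale itself the shares were 0.803, 0.837 and 0.871, and that of FGF10 was under the limit. Chance alone marks about 1 in 20 groups, and 18 were examined.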

How the results depend on the processing

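No result changed direction under any alternative. Without the fold limit, 7 genes passed for LPS 16h (4 with it), 3 for LPS 5d (1), 4 for LPS + Beta-Ac (2), each against preterm controls, and 8 for LPS 16h against LPS 5d (5). The count went to 0 with total counts for LPS 5d against preterm controls, to 0 with total counts, median-of-ratios factors or a fit of only the groups compared for term against preterm controls, and to 0 for LPS + Beta-Ac against term when only the groups compared were fitted or preterm control 209 and term control 200 were left out. When each animal was left out in turn, counts ranged from 4 to 4 for LPS 16h, 0 to 1 for LPS 5d, 1 to 2 for LPS + Beta-Ac and 0 to 1 for term against preterm controls, 0 to 0 for LPS + Beta-Ac against LPS 5d, 3 to 5 for LPS 16h against LPS 5d, 0 to 0 for LPS 5d and 0 to 1 for LPS + Beta-Ac against term. With total counts FGFR2 also passed the fold limit for LPS 16h against preterm controls, which made 5 genes, and for LPS + Beta-Ac against term the count stayed at 1, with SPRY1 called in place of FGF18. The animals behind these changes are named beside each result. Where a count fell because a value crossed the fold limit, the report gives that value, and for other changes the cause was not tested. Of the fits of single changed members, 176 of 184 kept an adjusted p below 0.05 under the other alternatives, and 147 of 172 when 1 animal was left out. These counts leave out the fold limit, and some of the fits counted as kept fell under 2-fold and lost the call. For other pathway genes, alternatives were added after the data were seen. With total counts the median change of all genes was -0.29 for LPS 16h against preterm controls and -0.22 against LPS 5d, and -0.09 and -0.04 with TMM. FGF9, at 26 to 132 counts, is the least precise member. The fits with 1 term control left assume that it varies like the other groups.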
